A study of Mus musculus with 12 samples.

Results

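Common myeloid progenitors (CMP) of mice that lack an enhancer of Cebpa were compared with the stem and progenitor fraction of wild-type mice, called LSK. The comparison took 6 of the 12 libraries of the series, 3 of enhancer-null CMP and 3 of wild-type LSK, and asked how far the enhancer-null progenitors have left the normal stem and progenitor state. All mice were C57BL/6 and all cells were sorted from bone marrow. The enhancer-null genotype is written Cebpa +42kb enhancer -/- in the labels, a homozygous loss of the enhancer 42 kb from Cebpa, and the other genotype is wild type. Genotype and cell type differ together between these libraries, so their effects cannot be told apart from this contrast alone. The 3 wild-type CMP and the 3 enhancer-null LSK libraries were therefore set beside it, and the 4 groups are enhancer-null CMP, wild-type CMP, enhancer-null LSK and wild-type LSK. The labels do not give the animals' age, the bounds of the sort gates, how the enhancer was removed, or whether the libraries of a group came from separate animals.

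LSK cells are negative for lineage markers and positive for Sca-1 and Kit, and include the stem cells. CMP lie downstream of them and give rise to granulocytes, monocytes, megakaryocytes and red cells. Cebpa encodes C/EBPα, the transcription factor under which myeloid progenitors enter the granulocyte and monocyte lineages, and its enhancer downstream of the gene is active in early haematopoietic cells.

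Counts assigned to genes totalled 8976999, 20122669 and 16843626 in enhancer-null CMP replicates 1, 2 and 7, against 34080293, 14753266 and 15401802 in wild-type LSK replicates 1, 6 and 8. Over all 12 libraries they ranged between 6170491 and 49149674. Levels are CPM, counts relative to depth scaled by TMM over the 12 libraries, and a floor of 3 counts lay between 0.149 and 0.334 CPM in enhancer-null CMP and between 0.088 and 0.203 CPM in wild-type LSK. Some libraries missed expressed genes. Of the 9184 genes whose mean reached 10 CPM, 3.56%, 0.0544% and 1.55% had no count in enhancer-null CMP replicates 1, 2 and 7, and 0%, 1.83% and 0.294% had none in wild-type LSK replicates 1, 6 and 8. By Xist and the Y-linked genes, the libraries numbered 1 and 2 of enhancer-null CMP and number 1 of wild-type LSK came from males and the other 3 from females.

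The targeted gene was nearly silent in enhancer-null CMP. Cebpa (ENSMUSG00000034957.10, chromosome 7, 35119293 to 35121928, plus strand, build mm10) had 0, 0.148 and 0 CPM in the 3 enhancer-null CMP libraries, 17.1, 15.1 and 30.5 CPM in wild-type CMP, 0.0760, 0 and 0.298 CPM in enhancer-null LSK and 6.42, 8.28 and 2.44 CPM in wild-type LSK. All 6 enhancer-null libraries were below all 6 wild-type ones. In summed counts this is 3 in enhancer-null CMP against 383 in wild-type LSK, a depth-scaled ratio of 87.9 in favour of wild-type LSK with a 95% counting interval of 29.9 to 428. The fitted log2 fold change of −6.54 (SE 2.21) did not pass edgeR's quasi-likelihood test (adjusted p = 0.333), and the adjusted p ran from 0.0128 to 0.613 over 13 alternatives. Of the 5 other family members that could be tested 0 passed by edgeR or DESeq2. Cebpb, which acts in emergency granulopoiesis, had 459, 176 and 159.7 CPM in enhancer-null CMP and 255, 159.7 and 279 CPM in wild-type LSK (log2 fold change 0.17, SE 0.44, adjusted p = 0.94). Cebpe, of late granulopoiesis, was below the expression filter with 12 counts in enhancer-null CMP and 189 in wild-type LSK.

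Sort markers followed the labels for Ly6a and Kit. Between enhancer-null and wild-type CMP, Kit, Fcgr3, Itgam and Ptprc were higher and Cd34, Flt3 and Ly6c2 lower without overlap. These were 4 and 3 of 12 gate markers tested in that pair, against 1302 and 1466 of all 11723 genes. By edgeR 0 of the 12 passed. Ly6a, the gene of Sca-1, stood at 8.84, 12.9 and 0.186 CPM in enhancer-null CMP, 5.46, 5.70 and 3.30 CPM in wild-type CMP, 196, 192 and 142 CPM in enhancer-null LSK and 146, 134 and 175 CPM in wild-type LSK. Every CMP library was thus far below every LSK library, although the difference between enhancer-null CMP and wild-type LSK did not pass the test (log2 fold change −4.39, SE 1.14, adjusted p = 0.201). Without enhancer-null CMP replicate 7, the lowest library, it passed (log2 fold change −3.81, adjusted p = 0.0322). Kit, the stem cell factor receptor, was at 479.7, 556 and 723 CPM in enhancer-null CMP, 255, 349 and 431 CPM in wild-type CMP and 734, 895 and 735 CPM in wild-type LSK. It did not pass against wild-type LSK (adjusted p = 0.432) or wild-type CMP (adjusted p = 0.252). Fcgr3, part of the Fc receptor pair that defines granulocyte and monocyte progenitors, was at 21.8, 19.3 and 18.7 CPM in enhancer-null CMP, 8.38, 4.75 and 0.264 CPM in wild-type CMP and 4.52, 17.0 and 0.313 CPM in wild-type LSK (adjusted p = 0.808 against wild-type LSK and 0.543 against wild-type CMP). Itgam, the lineage marker CD11b, was at 75.2, 62.5 and 85.1 CPM in enhancer-null CMP, 28.7, 30.9 and 43.1 CPM in wild-type CMP, 130.2, 126 and 80.8 CPM in enhancer-null LSK and 35.8, 5.89 and 25.2 CPM in wild-type LSK. It was higher in both enhancer-null groups than in all 6 wild-type libraries, and did not pass against wild-type LSK (adjusted p = 0.413) or wild-type CMP (adjusted p = 0.218). Of the 13 gate markers tested against wild-type LSK, Cd34 passed and was below all 9 other libraries in enhancer-null CMP.

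Of 11438 genes tested, 24 differed between enhancer-null CMP and wild-type LSK at an adjusted p under 0.05, which is 0.21% of all genes. Of these 9 rose (0.0787%) and 15 fell (0.131%) in enhancer-null CMP. At an unadjusted p under 0.05 there were 1202 genes, 587 higher and 615 lower, and the median over all genes was −0.04 on the log2 scale. By log2 fold change the largest rises were Tcf7, Scin, Gzmb and Cpa3, and the largest falls Cyp2j6, Slc35d3, Mecom and Paqr5. The biological coefficient of variation, the spread between libraries of a group, was 0.876. A fit over all 12 libraries with a shared estimate of the spread called 279 genes, 156 higher and 123 lower, among them all 24. List members counted at an unadjusted p or in that fit stand against these totals. Members called by other methods stand against the totals of those methods, given in the closing section. A gene nearly absent from either group of the contrast passes the expression filter only through the other, so its sign is fixed in advance. P-values measure the spread between these libraries, which may be technical. All log2 fold changes are enhancer-null CMP over wild-type LSK unless another pair is named.

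**Figure D1:**
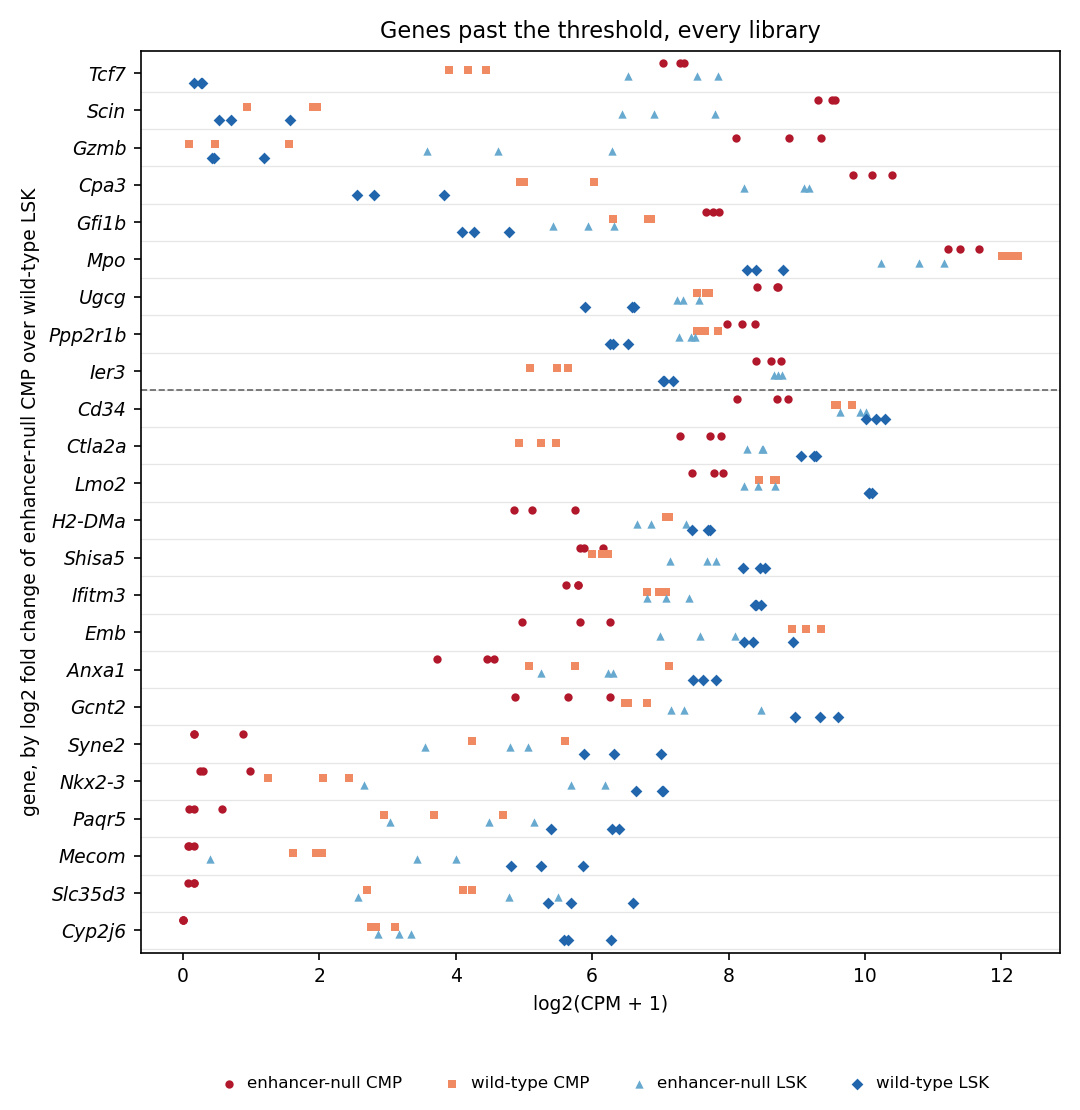
Level of the 24 genes past the threshold in each of the 12 libraries as log2(CPM + 1), ordered by log2 fold change of enhancer-null CMP over wild-type LSK; each point is a library, and the dashed line parts the 9 rises from the 15 falls. Scin, Gzmb and Cpa3 are high in enhancer-null CMP, intermediate in enhancer-null LSK and low in both wild-type groups, while Lmo2 is at 1067 to 1093 CPM in wild-type LSK and lower in the other 3 groups.

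Scin, Gzmb and Cpa3 rose together with Tcf7 by the largest folds, and Scin and Gzmb were below 3 CPM in every wild-type library. Scin (scinderin, an actin-severing protein of secretory cells; chromosome 12, 40059769 to 40134228, minus strand) stood at 754, 636 and 733 CPM in enhancer-null CMP, 2.92, 2.74 and 0.923 CPM in wild-type CMP, 119, 221 and 86.0 CPM in enhancer-null LSK and 1.96, 0.631 and 0.439 CPM in wild-type LSK. It was 629.6-fold higher than in wild-type LSK (log2 fold change 9.30, SE 0.60, adjusted p = 0.00159). Gzmb (granzyme B, a serine protease of cytotoxic and some mast cell granules; chromosome 14, 56258838 to 56262260, minus strand) had 656, 470.1 and 276 CPM in enhancer-null CMP, at most 1.95 CPM in wild-type CMP, 23.5, 77.4 and 10.9 CPM in enhancer-null LSK and 1.28, 0.351 and 0.376 CPM in wild-type LSK (log2 fold change 9.28, SE 0.68, adjusted p = 0.00225). For both genes the enhancer-null CMP libraries lay above all 9 others, and the enhancer-null LSK libraries above all 6 wild-type ones. Cpa3 (the carboxypeptidase A of mast cell granules; chromosome 3, 20215620 to 20242181, minus strand) followed at 1093, 908 and 1350.0 CPM in enhancer-null CMP, 64.2, 29.7 and 31.1 CPM in wild-type CMP, 552, 578 and 298 CPM in enhancer-null LSK and 4.89, 13.2 and 5.95 CPM in wild-type LSK. The rise over wild-type LSK was 138-fold (log2 fold change 7.11, SE 0.46, adjusted p = 0.00159). Each of the 3 also passed when the same enhancer-null CMP libraries were set against wild-type CMP, 313-fold higher for Scin (adjusted p = 0.0016), 511-fold for Gzmb (adjusted p = 0.0121) and 26.7-fold for Cpa3 (adjusted p = 0.00425).

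The promoters of these 3 genes are shown because their transcripts rose together in the enhancer-null cells. The stretches run 250 bases before to 50 bases after the transcription start and come from RefSeq on build GRCm38.p6, at chr12:40134179-40134478 for Scin, chr3:20242132-20242431 for Cpa3 and chr14:56262285-56262584 for Gzmb, all on the minus strand. Capitals mark matches to 4 motifs searched on both strands, TTGCNNAA for C/EBP factors, AGATAA for GATA factors, GAGGAA for ETS factors and TGTGGT for RUNX factors.
Scin: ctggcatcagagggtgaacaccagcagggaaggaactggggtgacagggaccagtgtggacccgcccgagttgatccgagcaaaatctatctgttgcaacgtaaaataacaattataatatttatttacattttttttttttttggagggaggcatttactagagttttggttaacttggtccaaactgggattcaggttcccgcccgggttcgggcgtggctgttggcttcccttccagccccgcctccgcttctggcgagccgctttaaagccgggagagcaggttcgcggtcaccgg
Cpa3: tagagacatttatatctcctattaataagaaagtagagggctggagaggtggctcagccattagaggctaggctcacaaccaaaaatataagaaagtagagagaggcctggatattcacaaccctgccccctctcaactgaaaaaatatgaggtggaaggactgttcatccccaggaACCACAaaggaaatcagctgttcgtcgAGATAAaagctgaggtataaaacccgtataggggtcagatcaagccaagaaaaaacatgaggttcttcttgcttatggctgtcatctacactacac
Gzmb: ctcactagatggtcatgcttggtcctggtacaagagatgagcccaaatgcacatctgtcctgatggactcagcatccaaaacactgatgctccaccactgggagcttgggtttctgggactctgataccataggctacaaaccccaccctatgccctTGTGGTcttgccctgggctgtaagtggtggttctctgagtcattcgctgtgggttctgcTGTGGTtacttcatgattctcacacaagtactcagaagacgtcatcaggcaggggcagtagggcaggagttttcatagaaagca
Cpa3 holds an AGATAA match at −46 and a RUNX match on the other strand at −73 from the start, Gzmb holds RUNX matches at −93 and −34, and Scin holds none of the 4. Over the 9 genes that rose, the C/EBP motif was in the promoter of 0, AGATAA in 1, the RUNX motif in 2 and the ETS motif in 5. Among 8779 tested genes with a promoter in the table, 9.97% held the C/EBP motif, 7.87% AGATAA, 15.2% the RUNX motif and 30.2% the ETS motif. Of the 15 genes that fell 14 had a promoter, and the C/EBP motif was in 2, AGATAA in 2, the RUNX motif in 2 and the ETS motif in 3. These are matches of letters in a short window, not measured binding.

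Cpa3 and Gzmb were the members to rise among 21 tested mast cell and basophil genes, and 19 did not pass. Of the 21, 15 lay above 0 and 6 below it in log2 fold change (median 0.70, against −0.04 over all genes). The libraries of the groups did not overlap for 9 members that were higher and 2 that were lower, where 10.3% of all genes tested were higher and 12% lower without overlap. Several members stood apart without passing. Il1rl1, the interleukin 33 receptor, was at 41.8, 65.7 and 23.9 CPM in enhancer-null CMP and at 0.796, 0 and 0.125 CPM in wild-type LSK. Wild-type CMP held 24.4 to 29.1 CPM of Il1rl1, which overlapped enhancer-null CMP. Fcer1a, a chain of the IgE receptor, was at 19.8, 8.82 and 15.2 CPM in enhancer-null CMP and at 0.426, 0 and 0 CPM in wild-type LSK. Its level in wild-type CMP was at most 0.391 CPM. The list member Hdc was lower in enhancer-null CMP, at 0.582 to 1.49 CPM, than in wild-type CMP, at 14.8 to 22.8 CPM. Of 23 members tested between the CMP groups, 15 were positive and 8 negative (median 1.46), with 11 higher and 1 lower without overlap. The tryptases Tpsb2 and Tpsab1 had 0 counts in enhancer-null CMP and in wild-type LSK. The mast cell and basophil proteases Cma1, Mcpt4 and Prss34 had 0 counts in enhancer-null CMP against 3, 25 and 84 in wild-type LSK. Summed over the 32 members in the files, the list reached 3820.0 to 4927 CPM in enhancer-null CMP and 2128 to 2386 CPM in wild-type LSK. In bulk libraries, more cells of a type and more RNA per cell cannot be told apart.

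Tcf7, which encodes the transcription factor TCF-1 of early T cell and stem cell programmes (chromosome 11, 52252371 to 52283014, minus strand), had the largest log2 fold change of the genes that rose. Its level was 162, 156 and 131 CPM in enhancer-null CMP, 14.0, 20.8 and 17.1 CPM in wild-type CMP, 185, 229.9 and 91.2 CPM in enhancer-null LSK and 0.199, 0.210 and 0.125 CPM in wild-type LSK. Wild-type LSK held 12 counts in all against 6670 in enhancer-null CMP, a depth-scaled ratio of 807 with a 95% counting interval of 462 to 1563 (log2 fold change 9.62, SE 0.47, adjusted p = 0.000621). It passed against wild-type CMP as well (log2 fold change 3.11, SE 0.28, adjusted p = 0.00846), while enhancer-null CMP and enhancer-null LSK overlapped (log2 fold change −0.20, SE 0.34, adjusted p = 0.976). Tcf7 was the member to rise among 14 tested T and NK cell genes, of which 11 had positive log2 fold changes (median 1.79) and 13 did not pass. Cd3e, of the T cell receptor complex, had 0 counts in enhancer-null CMP and 6 in wild-type LSK, and Cd3g had 14 and 25. Bcl11b, a factor of T cell commitment, was uneven at 88.8, 15.2 and 7.19 CPM in enhancer-null CMP and at most 0.140 CPM in wild-type LSK. The summed list was 549 to 865 CPM in enhancer-null CMP and 294 to 339 CPM in wild-type LSK, and its part in the rise of Tcf7 was not tested.

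Gfi1b, a transcriptional repressor of the erythroid and megakaryocyte lineages, was at 203, 230.5 and 217 CPM in enhancer-null CMP, 77.8, 112 and 115 CPM in wild-type CMP, 79.3, 42.1 and 60.1 CPM in enhancer-null LSK and 18.3, 26.4 and 16.1 CPM in wild-type LSK. Its rise over wild-type LSK was 10.5-fold (log2 fold change 3.40, SE 0.30, adjusted p = 0.00594). Against wild-type CMP it was 2.13-fold higher, which did not pass (log2 fold change 1.09, SE 0.22, adjusted p = 0.0887). Mpo, the myeloperoxidase of primary granules, was the one gene among the 9 with its highest level in wild-type CMP. It was at 2695, 2375 and 3264 CPM in enhancer-null CMP, 4845, 4459 and 4130.0 CPM in wild-type CMP, 1768, 2285 and 1200.0 CPM in enhancer-null LSK and 443, 307 and 337 CPM in wild-type LSK. The rise over wild-type LSK was 7.54-fold (log2 fold change 2.91, SE 0.19, adjusted p = 0.00159), and the wild-type step between the same LSK libraries and wild-type CMP was 12.7-fold (log2 fold change 3.67, SE 0.16, adjusted p = 0.000204). Enhancer-null against wild-type CMP gave a log2 fold change of −0.69 (SE 0.13) for Mpo, which did not pass (adjusted p = 0.0822).

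The other 3 rises were smaller. Ier3, an immediate early gene that modulates cell death, stood at 433, 336 and 395 CPM in enhancer-null CMP, 49.3, 32.9 and 44.0 CPM in wild-type CMP, 438, 423 and 405 CPM in enhancer-null LSK and 136 ± 7.93 CPM in wild-type LSK (SD, n = 3). It was 2.80-fold higher than in wild-type LSK (log2 fold change 1.49, SE 0.18, adjusted p = 0.0318), whereas in wild-type CMP it fell by 1.65 on the log2 scale relative to the same libraries (SE 0.24, adjusted p = 0.0164). Against wild-type CMP the enhancer-null CMP had a log2 fold change of 3.20 for Ier3 (SE 0.23, adjusted p = 0.00337). Ugcg, the glucosylceramide synthase, was 4.65-fold higher (342, 419.6 and 424 CPM in enhancer-null CMP, 58.6 to 96.9 CPM in wild-type LSK, adjusted p = 0.0318). Ppp2r1b, a scaffold subunit of protein phosphatase 2A, was 3.52-fold higher (291, 335 and 251 CPM in enhancer-null CMP, 91.5, 76.0 and 77.8 CPM in wild-type LSK, adjusted p = 0.0318). For both of these genes the wild-type CMP libraries lay between those groups.

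**Figure D2:**
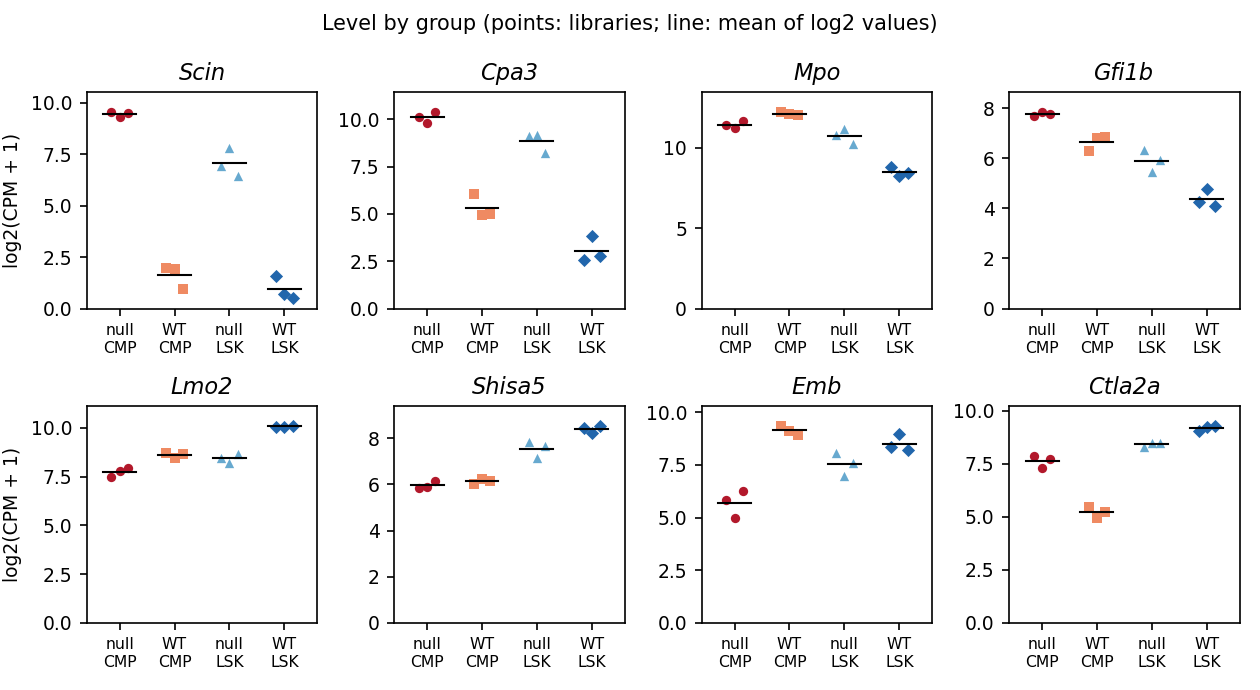
Level of 8 of the 24 genes as log2(CPM + 1) in enhancer-null CMP, wild-type CMP, enhancer-null LSK and wild-type LSK; points are the 3 libraries of a group and lines the mean of their log2 values. Scin and Cpa3 are high in both enhancer-null groups, Mpo peaks at 4130.0 to 4845 CPM in wild-type CMP, Shisa5 is alike in both CMP groups, Emb is lowest in enhancer-null CMP and Ctla2a lowest in wild-type CMP.

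Lmo2, Mecom and Nkx2-3, which encode transcription regulators, were among the 15 genes that fell. Lmo2, a bridging cofactor of the stem cell and erythroid transcription complexes (chromosome 2, 103957986 to 103981878, plus strand), was at 175, 219.8 and 242 CPM in enhancer-null CMP, 415, 348 and 405 CPM in wild-type CMP, 346, 297 and 408 CPM in enhancer-null LSK and 1069, 1067 and 1093 CPM in wild-type LSK. All 3 enhancer-null CMP libraries were below the other 9, all 3 wild-type LSK libraries were above them, and wild-type CMP overlapped enhancer-null LSK. Relative to wild-type LSK it fell by 2.36 on the log2 scale, a 5.14-fold lower level (SE 0.16, adjusted p = 0.00159). Mecom, which encodes the stem cell factor EVI1 (chromosome 3, 29951296 to 30548008, minus strand), was left with 3 counts in enhancer-null CMP against 2995 in wild-type LSK. Its levels were 0.116, 0.0493 and 0.0620 CPM in enhancer-null CMP, 2.86, 2.07 and 3.10 CPM in wild-type CMP, 15.1, 0.320 and 9.84 CPM in enhancer-null LSK and 57.4, 27.1 and 37.0 CPM in wild-type LSK. The ratio of depth-scaled counts was 687 in favour of wild-type LSK, with a 95% counting interval of 235 to 3336 (adjusted p = 0.0318). Nkx2-3, a homeobox gene, had 0.233, 0.986 and 0.186 CPM in enhancer-null CMP, 1.38, 4.41 and 3.17 CPM in wild-type CMP, 72.0, 5.28 and 50.6 CPM in enhancer-null LSK and 99.1, 129 and 131 CPM in wild-type LSK (log2 fold change −7.91, SE 0.79, adjusted p = 0.0118).

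A further 4 genes were lost to near the counting floor. Cyp2j6, a cytochrome P450 of fatty acid epoxidation, had 0 counts in enhancer-null CMP against 3569 in wild-type LSK (49.2, 76.2 and 47.2 CPM), which is at least 819-fold lower at a floor of 3 counts over the group (adjusted p = 0.0318). Wild-type CMP held 5.78, 7.60 and 6.13 CPM of it and enhancer-null LSK between 6.27 and 9.19 CPM. Slc35d3, an orphan member of the nucleotide sugar transporters, was left with 4 counts in enhancer-null CMP against 3576 in wild-type LSK, a ratio of 616 (95% counting interval 240.2 to 2261, adjusted p = 0.00971). Paqr5, a membrane progestin receptor, had 12 counts in enhancer-null CMP against 4673 in wild-type LSK (ratio 268, interval 153 to 519, adjusted p = 0.0335), and Syne2, a nesprin that links the nucleus to the cytoskeleton, had 20 against 5110 (ratio 176, interval 114 to 288, adjusted p = 0.0372). Each of the 4 was detected in all 3 wild-type CMP and all 3 enhancer-null LSK libraries. None passed between enhancer-null and wild-type CMP, where the adjusted p was 0.168 for Cyp2j6, 0.0928 for Slc35d3, 0.161 for Paqr5 and 0.0897 for Syne2.

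The other 8 genes that fell kept at least 12.2 CPM in every enhancer-null CMP library. Ifitm3, an interferon-inducible membrane protein that restricts viral entry, was at 54.6, 54.3 and 48.1 CPM in enhancer-null CMP and 334, 338 and 355 CPM in wild-type LSK (log2 fold change −2.73, SE 0.20, adjusted p = 0.00217). Its levels of 125, 111 and 134 CPM in wild-type CMP and 110.4, 134 and 170.3 CPM in enhancer-null LSK lay between those groups without overlap. Shisa5, a p53-inducible protein of the endoplasmic reticulum, had 55.7, 57.8 and 70.6 CPM in enhancer-null CMP, 63.1, 74.1 and 69.8 CPM in wild-type CMP and 351, 296 and 369.9 CPM in wild-type LSK (log2 fold change −2.49, SE 0.22, adjusted p = 0.00594). Both CMP groups overlapped for Shisa5 (log2 fold change −0.17, SE 0.26, adjusted p = 0.87). Cd34, a sialomucin on the surface of stem and progenitor cells, was at 469, 277 and 419 CPM in enhancer-null CMP, 893, 772 and 754 CPM in wild-type CMP, 975, 792 and 1037 CPM in enhancer-null LSK and 1142, 1258 and 1031 CPM in wild-type LSK. It fell by 1.58 on the log2 scale (SE 0.20, adjusted p = 0.0395), and every enhancer-null CMP library was below all 9 others.

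Gcnt2, which builds branched blood group I antigen, was 12.8-fold lower (49.1, 28.3 and 75.7 CPM in enhancer-null CMP, 644, 777 and 504 CPM in wild-type LSK, adjusted p = 0.0145). Anxa1, the phospholipid-binding annexin A1, had a log2 fold change of −3.45 (21.1, 12.2 and 22.6 CPM in enhancer-null CMP, 197, 225 and 178 CPM in wild-type LSK, adjusted p = 0.0113). H2-DMa, a chaperone of peptide loading on MHC class II, was 5.26-fold lower (27.8, 33.7 and 53.0 CPM in enhancer-null CMP, 175, 206 and 212 CPM in wild-type LSK, adjusted p = 0.0464). For the 3 genes the groups did not overlap. Emb and Ctla2a moved differently in the enhancer-null and the wild-type CMP. Emb (embigin, a chaperone of monocarboxylate transporters) was at 55.4, 30.5 and 75.7 CPM in enhancer-null CMP, 653, 559 and 489 CPM in wild-type CMP, 271, 126 and 191 CPM in enhancer-null LSK and 326, 494 and 297 CPM in wild-type LSK. It was lower in enhancer-null CMP than in wild-type LSK (log2 fold change −2.81, SE 0.38, adjusted p = 0.0494) and than in wild-type CMP (log2 fold change −3.40, SE 0.34, adjusted p = 0.0113). Ctla2a, a cysteine protease inhibitor of T cells, was at 236, 156 and 211 CPM in enhancer-null CMP, 43.5, 29.3 and 36.9 CPM in wild-type CMP, 308, 357 and 361 CPM in enhancer-null LSK and 533, 611 and 623 CPM in wild-type LSK. Its level was 2.98-fold lower in enhancer-null CMP than in wild-type LSK (adjusted p = 0.0329) but 5.48-fold higher than in wild-type CMP (log2 fold change 2.45, SE 0.27, adjusted p = 0.0124). Ctla2a was named outside the rule for named genes, after its values were seen. Ifitm3, Ctla2a, Cyp2j6 and H2-DMa have close paralogs, and how reads of near-identical copies were counted is not given in the sources used here.

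Not every call was equally firm. Tcf7, Scin, Gzmb, Cpa3, Mpo, Ifitm3 and Lmo2 passed under all 13 alternatives run, including the 6 fits that left out a library, with adjusted p of at most 0.0301. Gfi1b and Shisa5 passed 11 of 13 and lost their calls without wild-type LSK replicate 1 or 8 (adjusted p of at most 0.0551 for Gfi1b and 0.0605 for Shisa5). The remaining 15 lost theirs under at least 3 alternatives. Mecom, Ier3, Ppp2r1b and Emb passed none of the fits without 1 library, and with those fits their adjusted p reached 0.223, 0.189, 0.189 and 0.157. The number of genes called was between 7 without wild-type LSK replicate 8 and 32 without enhancer-null CMP replicate 2. It was 9 without wild-type LSK replicate 1, 14 without enhancer-null CMP replicate 1 and 11 without wild-type LSK replicate 6. The last 2 are the libraries of the 6 with most expressed genes at 0, and the part of this in the counts was not tested.

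As a group, stem cell genes were mostly below their wild-type LSK level. Of 42 tested, Gfi1b rose, Lmo2, Ifitm3 and Mecom fell, and 38 did not pass. Negative log2 fold changes were 37 of the 42 (median −1.92), and 26 members were lower and 4 higher without overlap, against 12% lower and 10.3% higher of all genes tested. A member nearly absent from enhancer-null CMP, such as Mecom, passes the expression filter only through wild-type LSK. Its negative sign is then fixed in advance. DESeq2 called 18 members lower and 3 higher. The list's 3 most abundant members included Zfp36l2, an mRNA decay factor, at 1289, 1115 and 1199 CPM in enhancer-null CMP and 1399, 1666 and 1499 CPM in wild-type LSK (adjusted p = 0.278), which was lower in wild-type CMP at 564, 477 and 615 CPM. The summed list was 4347 to 5425 CPM in enhancer-null CMP, 2216 to 2502 CPM in wild-type CMP, 5377 to 5979 CPM in enhancer-null LSK and 8170.0 to 9983 CPM in wild-type LSK. The sum weighs abundant members most and was not tested. Gene by gene, the 39 members tested between enhancer-null and wild-type CMP had 21 positive and 18 negative values (median 0.17). In that pair edgeR called 4 members higher and 0 lower, against 51 and 11 of all 11723 genes tested. Zfp36l2 was among those higher (log2 fold change 1.12, adjusted p = 0.0193). Lmo2, Ifitm3 and Mecom lay below wild-type CMP without passing (adjusted p = 0.0928, 0.0781 and 0.261).

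Of 30 Hox and Meis factors in the files, homeobox regulators of self-renewal, 16 could be tested. All 16 had a negative log2 fold change (median −3.23), 11 of them without overlap, where 12% of all genes tested were lower without overlap. A member nearly absent from enhancer-null CMP passes the expression filter only through wild-type LSK, so its negative sign is fixed in advance. By edgeR 0 passed and 7 had an unadjusted p under 0.05, while DESeq2 called 5 lower, the fit over all 12 libraries 2 and the replicate block 10. Meis1, a cofactor of HOX proteins, was at 57.6, 38.7 and 106 CPM in enhancer-null CMP, 42.3, 59.1 and 78.0 CPM in wild-type CMP, 229, 205 and 251 CPM in enhancer-null LSK and 328, 550.1 and 488 CPM in wild-type LSK (log2 fold change −2.78, SE 0.40, adjusted p = 0.0633). The CMP groups overlapped for Meis1 and both lay below all LSK libraries. Hoxa9 was uneven over enhancer-null CMP at 0.233, 3.10 and 36.6 CPM and at 243, 276 and 246 CPM in wild-type LSK (log2 fold change −4.28, SE 1.32, adjusted p = 0.284). Of 25 lymphoid priming genes 21 had negative values (median −1.33). By edgeR 0 passed and 12 had an unadjusted p under 0.05, against 1202 of all 11438 genes. DESeq2 called 10 lower and 1 higher, and the fit over all 12 libraries 7 lower and 1 higher. Flt3, the receptor that marks multipotent and lymphoid-primed progenitors, was at 87.5, 24.3 and 96.9 CPM in enhancer-null CMP, 343, 598 and 343 CPM in wild-type CMP, 622, 442 and 528 CPM in enhancer-null LSK and 857, 760.4 and 577 CPM in wild-type LSK (log2 fold change −3.42, SE 0.50, adjusted p = 0.0633). Every enhancer-null CMP library was below all 9 others for Flt3, and the fit over all 12 libraries called it lower.

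Erythroid genes mostly lay above their wild-type LSK level, with 0 calls by edgeR. Of 39 tested, 37 had a positive log2 fold change (median 2.39) and 26 were higher without overlap, against 10.3% of all genes tested. Some members were nearly absent from wild-type LSK, such as Kel with 56 counts against 2197 in enhancer-null CMP. They pass the expression filter only through enhancer-null CMP, so their positive sign is fixed in advance. Of the 39, 24 had an unadjusted p under 0.05, against 1202 of all 11438 genes, and DESeq2 called 22 higher and 0 lower. Ermap, an erythroid membrane protein, was at 91.4, 372 and 234 CPM in enhancer-null CMP, 229, 299.9 and 372 CPM in wild-type CMP, 1.60, 0.480 and 9.37 CPM in enhancer-null LSK and 3.30, 0.210 and 1.25 CPM in wild-type LSK (log2 fold change 7.10, SE 1.02, adjusted p = 0.0626). Car1, carbonic anhydrase 1, was at 854, 1599 and 366 CPM in enhancer-null CMP and 35.9, 2.45 and 25.0 CPM in wild-type LSK (log2 fold change 5.45, SE 1.01, adjusted p = 0.096). Tfrc, the transferrin receptor, was at 368, 505 and 322 CPM in enhancer-null CMP and 69.8, 119 and 136 CPM in wild-type LSK (log2 fold change 1.86, SE 0.31, adjusted p = 0.079). Between enhancer-null and wild-type CMP the log2 fold changes of these genes were −0.37 for Ermap, −0.14 for Car1 and −0.07 for Tfrc, with adjusted p of 0.831, 0.943 and 0.937. The fit over all 12 libraries called 9 erythroid genes higher and 0 lower than in wild-type LSK, Ermap, Car1 and Tfrc among them. Enhancer-null CMP replicate 2 was the highest for Ermap, Car1 and Tfrc, and the summed list was 5260.5 to 10922 CPM in enhancer-null CMP and 2298 to 2535 CPM in wild-type LSK.

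The megakaryocyte and platelet list was less uniform. Gfi1b rose among 28 tested members, 18 had positive and 10 negative log2 fold changes (median 0.50), and 27 did not pass. Itga2b, the platelet integrin CD41, was at 232, 95.2 and 126 CPM in enhancer-null CMP and 32.9, 30.1 and 31.9 CPM in wild-type LSK. Itga2b was among the 6 members that the fit over all 12 libraries called higher, and that fit called 0 lower.

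Relative to wild-type LSK, granulocyte and monocyte genes did not move as one group. Of 19 tested primary granule genes Mpo rose and 18 did not pass, with 9 positive and 10 negative log2 fold changes (median −0.12). Plac8, a small protein of myeloid granules, was at 944, 646 and 839.7 CPM in enhancer-null CMP and 336, 401 and 365 CPM in wild-type LSK (log2 fold change 1.12, SE 0.17, adjusted p = 0.0707). Of 28 regulators of these lineages 14 were positive and 14 negative (median −0.14), with 0 calls by edgeR. At an unadjusted p under 0.05 there were 9, against 1202 of all 11438 genes, and DESeq2 called 4 higher and 4 lower. Csf3r, the G-CSF receptor, was at 54.3, 29.4 and 54.0 CPM in enhancer-null CMP and 159, 129 and 177 CPM in wild-type LSK (log2 fold change −1.78, SE 0.34, adjusted p = 0.0968), while Myb, a factor of progenitor growth, was at 1409, 1005 and 866 CPM in enhancer-null CMP and 680.4, 674 and 593 CPM in wild-type LSK (log2 fold change 0.73, SE 0.19, adjusted p = 0.201). Of 24 late neutrophil genes in the files 13 could be tested, and 12 of these were negative (median −5.21). Members nearly absent from enhancer-null CMP passed the expression filter only through wild-type LSK, so their negative sign was fixed in advance. By edgeR 0 passed and 8 had an unadjusted p under 0.05, while DESeq2 called 8 lower and the fit over all 12 libraries 0. The summed level of all 24 was 73.5 to 119.7 CPM in enhancer-null CMP and 312 to 1577 CPM in wild-type LSK, highest in wild-type LSK replicate 1. S100a8, a calcium-binding protein of neutrophils, was at 0.582, 6.01 and 2.85 CPM in enhancer-null CMP and 267, 34.4 and 20.6 CPM in wild-type LSK. Of 15 monocyte and macrophage genes 10 were negative (median −1.07), with 0 calls by edgeR, 2 members at an unadjusted p under 0.05 and 1 called lower by DESeq2. Against wild-type CMP, 19 of 20 tested members of that list were negative (median −3.25). Without overlap 14 were lower and 1 higher, against 1466 and 1302 of all 11723 genes. By edgeR 2 were called lower and 0 higher, against 11 and 51 of all genes. In that pair, negative values were 17 of 20 for primary granule genes, 16 of 29 for regulators and 10 of 13 for late neutrophil genes. Without overlap 3 late neutrophil genes were lower and 1 higher. Their summed level was uneven over wild-type CMP, at 2326, 319 and 43.3 CPM in replicates 1, 6 and 8. Replicate 8 was thus below every enhancer-null CMP library. Members nearly absent from enhancer-null CMP passed the filter mainly through wild-type CMP, so their negative sign was fixed in advance.

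**Figure D3:**
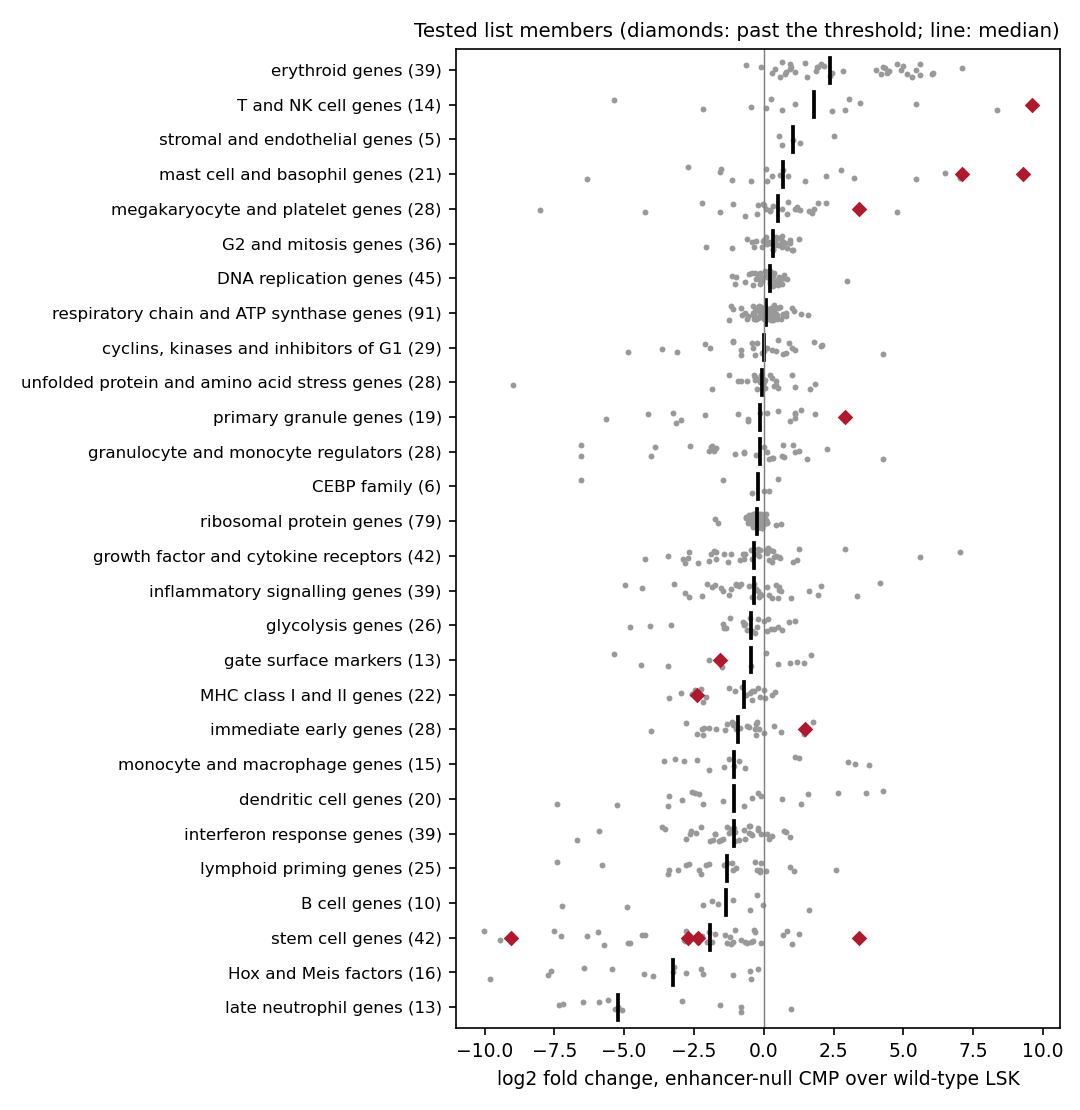
Log2 fold change of enhancer-null CMP over wild-type LSK for the tested members of 28 gene lists, ordered by median; each grey point is a gene that did not pass, each red diamond one past the threshold, the black line is the list's median and the number of tested members stands in brackets. The eosinophil list, with 1 tested member, is not drawn. Of those drawn, erythroid genes have the highest median at 2.39 and late neutrophil genes, with 13 of 24 members tested, the lowest at −5.21. No list holds more than 4 genes past the threshold.

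Interferon response genes mostly lay below their wild-type LSK level, with 33 of 39 negative (median −1.08), and 22 lower and 1 higher without overlap, against 12% lower and 10.3% higher of all genes tested. By edgeR 0 passed and 13 had an unadjusted p under 0.05, against 1202 of all 11438 genes. DESeq2 called 9 lower, the replicate block 6 and the fit over all 12 libraries 3. Ddx58, the RIG-I sensor of viral RNA, was at 17.3, 34.1 and 15.3 CPM in enhancer-null CMP, 13.2, 16.7 and 22.2 CPM in wild-type CMP, 113, 134 and 88.6 CPM in enhancer-null LSK and 88.8, 169 and 149 CPM in wild-type LSK (log2 fold change −2.62, SE 0.46, adjusted p = 0.0874). Both CMP groups lay below both LSK groups. Of 22 MHC genes H2-DMa fell, 18 were negative (median −0.72) and 21 did not pass. H2-K1, a classical class I gene, was at 1837, 1535 and 1723 CPM in enhancer-null CMP, 1100.0, 947 and 1086 CPM in wild-type CMP and 2552, 2666 and 2614 CPM in wild-type LSK (log2 fold change −0.64, SE 0.09, adjusted p = 0.0633). B2m, the class I light chain, differed by less than the spread between libraries (log2 fold change 0.05, SE 0.13, adjusted p = 0.945).

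Immediate early genes, which respond to signals and to cell handling, had 22 of 28 negative values (median −0.92), Ier3 the single call and a rise. Fos was at 398, 597 and 977 CPM in enhancer-null CMP and 3081, 1660.0 and 1568 CPM in wild-type LSK (log2 fold change −1.70, SE 0.38, adjusted p = 0.151). Among 39 inflammatory signalling genes 25 were negative (median −0.35), with 0 calls by edgeR. At an unadjusted p under 0.05 there were 12, against 1202 of all 11438 genes, and DESeq2 called 4 higher and 6 lower. Nfkbiz, a nuclear IκB protein, was at 55.1, 41.7 and 74.9 CPM in enhancer-null CMP and 301, 220.5 and 170.3 CPM in wild-type LSK (adjusted p = 0.0776). Of 42 growth factor and cytokine receptors 25 were negative (median −0.34), with 0 calls by edgeR, 9 members at an unadjusted p under 0.05, and 2 called higher and 3 lower by DESeq2.

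Cell cycle and housekeeping lists had medians between −0.44 and 0.35 and 0 calls by edgeR. At an unadjusted p under 0.05 there were 2 of 36 G2 and mitosis, 1 of 45 DNA replication, 8 of 29 G1 and 19 of 79 ribosomal protein genes. The same held for 7 of 91 respiratory chain, 8 of 26 glycolysis and 6 of 28 unfolded protein and amino acid stress genes. Over all genes it held for 1202 of 11438. Of the 19 ribosomal protein genes 18 were lower and 1 higher. DESeq2 called 0, 0, 5, 6, 4, 4 and 2 members of these lists, in the same order. G2 and mitosis genes had 27 of 36 positive values (median 0.35), DNA replication genes 29 of 45 (median 0.21), and G1 regulators 15 of 29 (median 0.01). Mcm7, of the replicative helicase, was at 450.2, 408 and 413 CPM in enhancer-null CMP, 502, 552 and 479.6 CPM in wild-type CMP, 257, 225 and 322 CPM in enhancer-null LSK and 269, 301 and 304 CPM in wild-type LSK (log2 fold change 0.52, SE 0.15, adjusted p = 0.249). The G2 and mitosis sum was 2558 to 4511 CPM in enhancer-null CMP, 5807 to 6271 CPM in wild-type CMP, 1726 to 2432 CPM in enhancer-null LSK and 2034 to 3406 CPM in wild-type LSK, so that enhancer-null CMP overlapped wild-type LSK and lay below wild-type CMP. Ribosomal protein genes had 66 of 79 negative values (median −0.26), respiratory chain genes 56 of 91 positive (median 0.10), glycolysis genes 17 of 26 negative (median −0.44), and unfolded protein and amino acid stress genes 15 of 28 negative (median −0.06).

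Lists of other cells that the gates could hold were read for the same libraries. B cell genes had 9 of 10 negative values (median −1.36), dendritic cell genes 14 of 20 (median −1.08) and stromal and endothelial genes 0 of 5 (median 1.04). By edgeR 0 of these passed, with 2, 9 and 1 at an unadjusted p under 0.05, against 1202 of all 11438 genes. DESeq2 called 2 B cell genes lower, 6 dendritic cell genes lower and 1 higher, and 1 stromal gene higher. A single eosinophil list member, Gata1, which is also an erythroid gene, could be tested (log2 fold change 4.79, SE 1.30, adjusted p = 0.217). Some members of the lists of other cells were present in wild-type LSK and lower in enhancer-null CMP. Whether their reads came from such cells was not tested. The neutrophil granule gene Ngp was at 1.28, 5.27 and 0.124 CPM in enhancer-null CMP and 304, 70.8 and 32.2 CPM in wild-type LSK, and Cd74, the MHC class II invariant chain, at 22.3, 18.5 and 54.4 CPM in enhancer-null CMP and 155, 143 and 121 CPM in wild-type LSK. The endothelial sialomucin Emcn was at 0, 0.591 and 0 CPM in enhancer-null CMP and above 25 CPM in wild-type LSK replicates 1 and 8, with 0.561 CPM in replicate 6. The B cell factor Pax5 had 0 counts in both groups. Pdgfrb, a receptor of pericytes and fibroblasts, was at 99.5, 164 and 193 CPM in enhancer-null CMP and 38.6, 9.05 and 30.0 CPM in wild-type LSK (log2 fold change 2.53, SE 0.57, adjusted p = 0.16). Its level was 290.2, 159 and 191 CPM in enhancer-null LSK and 19.7, 40.8 and 34.1 CPM in wild-type CMP. Of the 23 stromal and endothelial genes in the files, 8 had 0 counts in enhancer-null CMP and 6 in wild-type LSK.

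The same test was run on the related pairs, which share libraries with this contrast, so that their counts are given side by side. Wild-type CMP against wild-type LSK called 507 of 12030 genes (4.21%), 259 higher and 248 lower. Enhancer-null against wild-type CMP called 62 of 11723 (0.529%), 51 higher and 11 lower. Enhancer-null CMP against enhancer-null LSK called 0 of 11267 (0%) by edgeR, with 780 genes at an unadjusted p under 0.05 and 206 calls by DESeq2. The counts do not rank the distances between groups. The biological coefficient of variation was 0.876 between enhancer-null CMP and wild-type LSK and 0.719 for the wild-type step.

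Distance between libraries was also measured without a test, as the root mean square difference of log2(CPM + 1) over 12687 genes. The 9 pairs of enhancer-null CMP with wild-type LSK libraries had a median of 1.8 (range 1.08 to 2.17). The median was 1.41 (0.98 to 1.93) for wild-type CMP with wild-type LSK, 1.3 (0.722 to 1.8) for enhancer-null with wild-type LSK, 1.46 (0.782 to 1.87) for enhancer-null with wild-type CMP and 1.49 (0.887 to 1.81) for enhancer-null CMP with enhancer-null LSK. The contrast thus had the largest median of the 5 pairs of groups, and its range overlapped each of the others. Libraries within a group were also far apart, with 1.6 (1.27 to 1.83) among enhancer-null CMP and 1.56 (0.902 to 1.65) among wild-type LSK, against 0.982 among wild-type CMP and 1.07 among enhancer-null LSK.

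**Figure D4:**
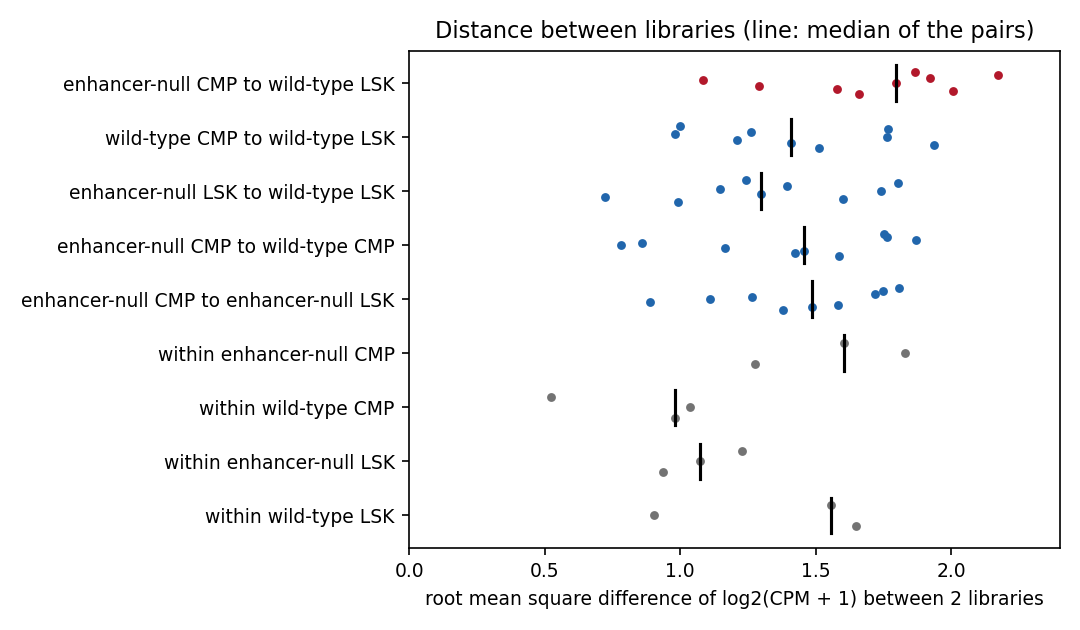
Root mean square difference of log2(CPM + 1) for each pair of libraries, by pair of groups; points are pairs of libraries and black lines the median, with enhancer-null CMP to wild-type LSK in red, other pairs of groups in blue and pairs within a group in grey. Enhancer-null CMP to wild-type LSK has the highest median at 1.8, and 1.6 and 1.56 separate libraries within each of these groups.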

How the data were processed

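Per the labels' protocols, RNA was extracted in the presence of a carrier, turned into cDNA with an ultra-low input kit, and sequenced from both ends at 75 bp. The deposited values are raw counts for each gene symbol, with a file for every library, which the authors made with TopHat2 2.0.4, TopHat, Bowtie and HTSeq on mm10, per the submitters' processing notes. Which annotation was used, and whether strand was counted, is not given in the sources used here, so reads of overlapping or antisense genes may be mixed. The rows without a gene name held 37.2% to 46.9% of the counts of a library and were left out. The file of wild-type CMP replicate 6 lists 23456 symbols and the other 11 files 24420. They were joined on 22779 identical symbols and 608 linked by an older name in RefSeq, and 0.0693% to 0.297% of gene counts were not joined. No replicate files were identical (chi-square per degree of freedom 43 to 183).

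Genes were tested with edgeR 4.0.16 in R 4.3.3 (quasi-likelihood, TMM, expression filter with a minimum count of 10), using only the 6 libraries of each pair of groups, with Benjamini-Hochberg adjustment and a threshold of 0.05. The SE is the log2 fold change over the root of F. Alternatives used DESeq2 1.42.0, limma 3.58.1 voom, other scaling, no filter, sex as a covariate, a fit over 12 libraries, all symbols of the 6 files, and each library left out. The test was tried on simulated counts. Counting intervals are exact at 95%, and they and the floor of 3 counts cover counting error only, since amplified reads carry no molecular identifiers.

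Positions come from GENCODE on GRCm38 (mm10) and promoters from RefSeq GRCm38.p6. Named genes were the CEBP family, the gate markers, the 12 largest rises and falls past the threshold (no overlap, a gene name, and a mean of 5 CPM or more where higher), and up to 4 members past the threshold of each of 29 lists, or else the member of smallest p. The 3 most abundant members of each list, and markers of other cells given by library, were added after values were seen. The members and lists were chosen with earlier results of these data known.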

Additional observations from a re-analysis of the deposited data

How the results depend on the processing

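Against the 24 genes called between enhancer-null CMP and wild-type LSK, RLE scaling called 22, all symbols of the 6 files 25, DESeq2 612 (244 higher, 368 lower), no filter 112, the fit over 12 libraries 279 and sex as a covariate 14, and the fits without 1 library 7 to 32. Of the 24 calls 37.5% were higher, against 55.9% in the fit over 12 libraries. For wild-type CMP against wild-type LSK the 507 calls became 1616 with DESeq2 and 285 with sex as a covariate, and 56 (without wild-type CMP replicate 8) to 882 (without wild-type LSK replicate 6) without 1 library. For enhancer-null against wild-type CMP the 62 calls became 630 with DESeq2, 269 with no filter, 232 in the fit over 12 libraries and 31 with sex, and 7 (without wild-type CMP replicate 6 or 8) to 91 without 1 library, with 13 without wild-type CMP replicate 1. For enhancer-null CMP against enhancer-null LSK the 0 calls became 206 with DESeq2, 9 with no filter and 37 over 12 libraries, and stayed 0 without any 1 library. The replicate block gave 622 calls for the main contrast and 289 between the CMP groups as a random term over 12 libraries (limma voom), 137 for the wild-type step and 0 for the enhancer-null step as a fixed term. Deviations from the group means correlated between −0.108 and 0.162 in same-numbered CMP and LSK libraries. Pairs with different numbers ran from −0.203 to 0.187. Same-numbered CMP and LSK libraries of a genotype were of the same sex. Whether the numbers mark the same animals is not given, and these correlations cannot decide it. All 24 genes were among the 612, 279 and 622. The median distance of enhancer-null CMP to wild-type LSK was 3.98 over the 500 genes of largest spread, 0.169 as 1 minus Spearman's correlation, and 1.62 to 1.89 without 1 library. Over the named genes, 612 of 766 values kept direction and side of the threshold, 87 lost the call, 67 gained one and 0 reversed. What caused these changes was not tested. The floor of 3 counts lay between 0.088 and 0.334 CPM in the 6 libraries, and differences below it were not detectable at this depth.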
